A study of Homo sapiens with 4 samples.

Results

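Among genes that were higher with phytohemagglutinin (PHA) in Jurkat T cells, 52 were still near their stimulated level when the BET inhibitor JQ1 was present, and were less than 2-fold higher with JQ1 alone. They were chosen on the FPKM of all 4 libraries (counts scaled by gene length and library total, with 0.1 added before each ratio). A member had a mean FPKM of at least 0.5, was at least 2-fold higher in DMSO+PHA than in DMSO, kept at least 0.75 of the DMSO+PHA level in JQ1+PHA, and was less than 2-fold higher in JQ1 than in DMSO. Genes with names that start with HIST, RPL, RPS or ZNF were left out, which removed 3 genes. The 52 members stand within 371 PHA-induced genes, 12893 genes that passed the mean FPKM filter with these names left out, and 50868 genes in all.

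The libraries were made from wild-type Jurkat cells, an established human T lymphoblast line from a T-cell leukemia, after 24 h in culture. The conditions were DMSO as vehicle, 0.5 μM JQ1, DMSO with 150 ng/ml PHA, and 0.5 μM JQ1 with 150 ng/ml PHA. Each condition had 1 library, so there was no replicate, no test between conditions was possible, and nothing here shows how far a second culture would differ. The series addresses how JQ1 changes gene expression in resting and PHA-stimulated T cells.

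PHA is a plant lectin that binds sugar chains on surface glycoproteins, clusters the T-cell receptor complex, and starts calcium, MAPK and NF-kB signalling. JQ1 occupies the acetyl-lysine pockets of the BET bromodomain proteins, which takes them off acetylated chromatin and weakens the release of paused RNA polymerase II at many genes. Genes switched on by stimulation are often among those that need BET proteins.

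Total counts lay between 18620954 and 19685401 per library. HEXIM1, which BET inhibitors raise in many cell types, was at 36.2 FPKM in DMSO, 109 in JQ1, 34.6 in DMSO+PHA and 104 in JQ1+PHA, higher in both JQ1 libraries. All 11 T-cell line markers examined were at 3.96 FPKM or more in every library. The 3 monocyte, 2 erythroid and 2 epithelial markers were all under 1 FPKM, as was the B-cell marker MS4A1, while CD79A lay between 1.01 and 7.48 FPKM. In such bulk RNA, fewer cells with a transcript and less transcript per cell cannot be told apart.

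The selection fixes the direction of the first ratios, and they are given as a description. Over the 52 members, the ratio of DMSO+PHA to DMSO had a median of 2.35-fold and ran from 2.01 to 28.9-fold, with 31 members under 2.5-fold. The share of all genes past the filter that were 2-fold higher with PHA was 2.88%, and 1.62% were 2-fold lower, which the rule bars for members. The ratio of JQ1+PHA to DMSO+PHA had a median of 0.917 and ran from 0.751 to 5.73. It was 1 or more in 22 members, and 1 member (NUDT4) was over 2-fold higher with JQ1, against 4.26% of all genes past the filter. NUDT4 passed the mean FPKM filter only through its JQ1+PHA level. Of all genes 9.48% were 2-fold lower in this ratio, and the rule allows no such member. Members were mostly low in abundance, with a median of 1.93 FPKM in DMSO+PHA and 5 at 10 FPKM or more.

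What the members did under JQ1 alone split them. JQ1 without PHA was above DMSO in 41 members and below it in 9, with a median ratio of 1.52-fold and a range from 0.247 to 1.97. Of the 12893 genes past the filter, 6321 were above and 6569 below, with a median ratio of 0.989. JQ1 was 1.5-fold or more above DMSO, short of the 2-fold limit, in 27 of 52 members (51.9%), against 9.97% of all genes past the filter, where another 6.08% were 2-fold higher or more. With 0.1 added, only AMIGO3 was at least 2-fold lower, where 10.1% of all genes were. These shares follow in part from the selection, since the rule caps this ratio and takes its PHA ratio from the same DMSO library. By count shares, NUDT4 (40 counts in DMSO and 12 in JQ1), RP11-161H23.10 (3 and 1) and ST13P19 (1 and 0) were also at least 2-fold lower with JQ1 alone. Over all 371 PHA-induced genes the median JQ1 to DMSO ratio was 1.56-fold. With PHA added to JQ1-treated cells, 21 of 52 members (40.4%) were at least 2-fold higher than with JQ1 alone, against 1.43% of all genes. This share follows in part from the selection, since the 3 ratios of the rule together fix the fourth. Of all genes 1.42% were 2-fold lower in this ratio, which the limits of the rule together bar for members.

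On this basis the members fell into 3 groups, which were formed after their values were seen. In 21 members PHA gave at least 2-fold in DMSO-treated and in JQ1-treated cells, with a median JQ1 to DMSO ratio of 1 and a median PHA ratio in JQ1-treated cells of 4.23. In 25 members JQ1 alone gave 1.52 to 1.97-fold and PHA added less than 2-fold on top, with a median of 1.17. The remaining 6 members met neither condition, with JQ1 to DMSO ratios from 1.15 to 1.49. In 11 of the 25, the counting interval described below included no change for JQ1 against DMSO. DMSO was the lowest of the 4 libraries in 43 members and JQ1 in 9, and the highest was DMSO+PHA in 30 and JQ1+PHA in 22. The 43 include CTD-3074O7.11 and RP11-598P20.5, in which DMSO and JQ1 were tied at 0 counts.

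**Figure D1:**
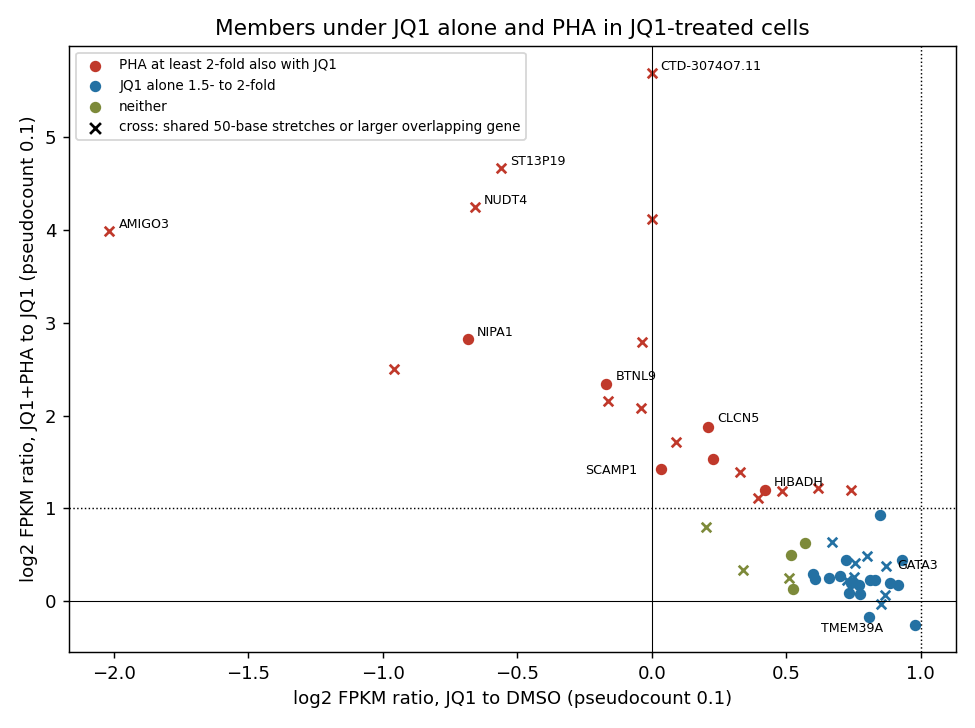
The horizontal axis is the log2 FPKM ratio of JQ1 to DMSO and the vertical axis that of JQ1+PHA to JQ1, with 1 point per member coloured by group. The 25 members in blue gather at the lower right between 1.52 and 1.97-fold with JQ1, and the 21 in red lie above the dotted 2-fold line, most of them as crosses, which mark transcripts that share sequence or overlap a larger gene.

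Intervals given below are 95% exact (Clopper-Pearson) intervals of the log2 ratio of a gene's shares of the counts in 2 libraries. They cover counting error only. For the PHA ratio in DMSO-treated cells the interval lay above no change in 42 members and included it in 10. The members were chosen at 2-fold or more in this ratio, so these counts describe the choice and support nothing. For JQ1 against DMSO the interval lay above no change in 23, below it in 3 and included it in 26. For PHA in JQ1-treated cells it lay above in 30, below in 1 and included no change in 21. Depth was the limit in many, as 17 members had fewer than 30 counts in their best library and 10 had 3 counts or fewer in DMSO.

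How far a member can be read as its own gene differed. Of the 51 members with transcripts in GENCODE release 44, 16 shared at least 10% of their 50-base stretches with other genes, and 24 members overlapped another gene with more than 3 counts. The paper names a stranded library kit, but the sources differ in the name of the kit and do not give the strand setting of the counting. With these counts, reads of overlapping and antisense genes therefore cannot be told apart. That left 26 members with little shared sequence and no larger overlapping gene, 21 of them coding. Of these 26, PHA gave at least 2-fold in JQ1-treated cells in 6, JQ1 alone gave at least 1.5-fold with less than 2-fold from PHA in 17, and 3 met neither condition.

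**Figure D2:**
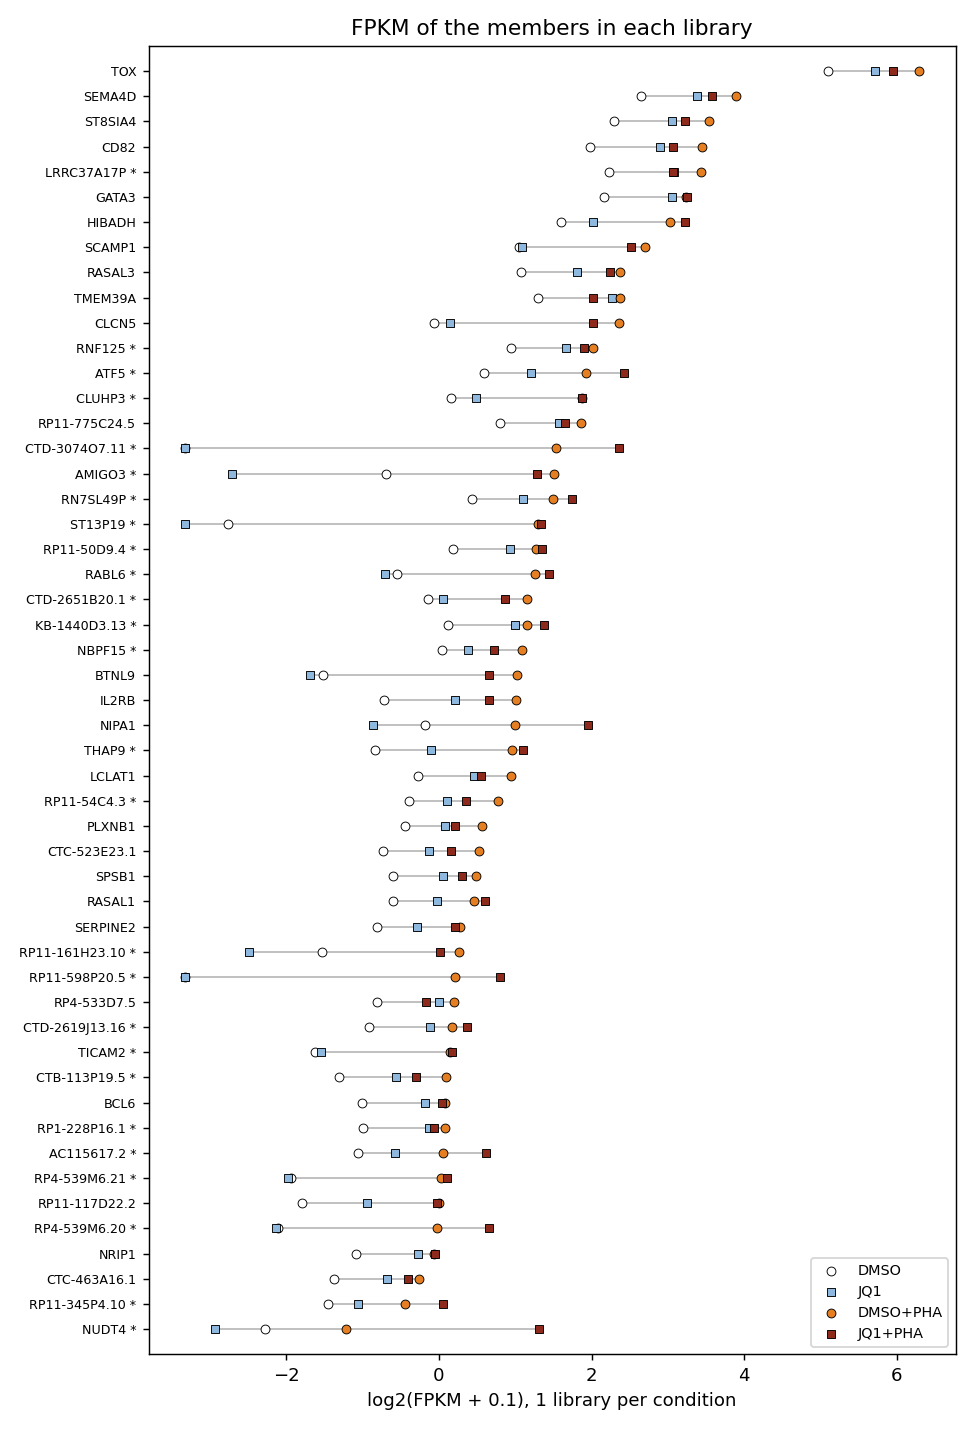
For 51 of the 52 members the log2 of FPKM plus 0.1 is shown in the 4 libraries, ordered by DMSO+PHA, with an asterisk where a transcript shares sequence or overlaps a larger gene. TOX is at the top with 78.1 FPKM in DMSO+PHA and NUDT4 at the bottom with 0.331, and DMSO is the lowest point in most rows.

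Promoter sequence was available from RefSeq (GRCh38.p14, 250 bases before to 50 after the start) for 23 of the 52 members, matched by gene name. RABL6 is among them by name only, since the member is a separate identifier from the main RABL6 gene. The promoters of 4 members are shown because they stand for the groups described above. Capitals mark matches to the motifs searched, and positions count from 0 at the start. CLCN5, of the PHA group, is on the plus strand of chromosome X (chrX:49922346-49922645) and had no match. ATF5 lies at chr19:49928656-49928955 on the plus strand, with an AP-1 site (TGACTCA) at position -188 from the start and 3 ISRE matches at -91, -85 and +7, the first pair overlapping. SEMA4D lies at chr9:89495607-89495906 on the minus strand with an E-box (CACGTG) at -50. GATA3 lies at chr10:8045083-8045382 on the plus strand with an NF-kB match at -19, and this RefSeq start is upstream of the start at 8053604 that the files give. For ATF5 and SEMA4D the RefSeq start lies inside the measured locus. That locus begins at 49928702 for ATF5 and, on the minus strand, at 89498130 for SEMA4D.
CLCN5: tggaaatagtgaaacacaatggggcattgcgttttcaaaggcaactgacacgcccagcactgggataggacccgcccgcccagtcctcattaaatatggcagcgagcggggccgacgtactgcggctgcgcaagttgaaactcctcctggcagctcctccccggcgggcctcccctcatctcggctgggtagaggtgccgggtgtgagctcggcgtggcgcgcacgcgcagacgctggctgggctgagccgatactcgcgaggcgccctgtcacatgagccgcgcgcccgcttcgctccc
ATF5: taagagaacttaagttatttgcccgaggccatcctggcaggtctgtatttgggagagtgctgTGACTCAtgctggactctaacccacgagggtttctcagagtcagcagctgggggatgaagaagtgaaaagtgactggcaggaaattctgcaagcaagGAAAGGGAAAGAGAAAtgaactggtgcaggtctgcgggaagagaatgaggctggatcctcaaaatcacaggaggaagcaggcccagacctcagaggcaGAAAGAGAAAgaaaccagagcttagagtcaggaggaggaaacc
SEMA4D: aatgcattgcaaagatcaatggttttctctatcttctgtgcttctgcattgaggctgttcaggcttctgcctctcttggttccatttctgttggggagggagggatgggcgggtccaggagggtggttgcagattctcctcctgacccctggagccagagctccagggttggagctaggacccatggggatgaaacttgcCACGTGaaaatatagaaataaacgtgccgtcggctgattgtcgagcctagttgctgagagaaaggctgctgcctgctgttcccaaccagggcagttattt
GATA3: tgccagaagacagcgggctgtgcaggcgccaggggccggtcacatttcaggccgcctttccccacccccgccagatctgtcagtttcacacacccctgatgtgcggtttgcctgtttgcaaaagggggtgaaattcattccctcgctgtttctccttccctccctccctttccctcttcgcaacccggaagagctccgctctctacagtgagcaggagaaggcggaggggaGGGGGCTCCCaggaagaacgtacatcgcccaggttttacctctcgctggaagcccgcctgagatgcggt

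Motifs were counted on both strands and could overlap, and a match is a description. Shares are given over the 23 member promoters, the 8438 promoters of genes past the filter and all 27305 promoters. TGACTCA (AP-1) was in 2 members (8.70%, ATF5 and TICAM2), 2.49% and 4.92%. CACGTG (E-box) was in 4 members (17.4%), 10.7% and 7.44%. The NF-kB site was in 4 members (17.4%), 12.8% and 10.8%. GGAAAA (NFAT) was in 4 members (17.4%, with RABL6 among them by name only), 19.9% and 24.3%. TGACGTCA (CRE) was in 1 member (4.35%, TMEM39A), 3.54% and 1.98%, and the ISRE in 1 (4.35%, ATF5), 2.77% and 3.65%. No member promoter held GCGTGGGCG (EGR), which was in 1.33% and 0.784%, CCGGAAGT (ETS), in 9.93% and 4.44%, or the CArG box, in 0.996% and 1.29%. TATAAA, the core promoter element that positions polymerase, was in 0 members, 4.79% and 11.95%. The median GC content was 62.3%, 65.3% and 58.3% in the same order.

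Of the 6 coding genes that were at least 2-fold higher with PHA with and without JQ1, and that could be read as single genes, 5 are described here, CLCN5, SCAMP1, HIBADH, NIPA1 and BTNL9. On GRCh38 their loci in the files are chromosome X from 49922615 to 50099235 for CLCN5 (ENSG00000171365) and chromosome 5 from 78360583 to 78479071 for SCAMP1 (ENSG00000085365). HIBADH (ENSG00000106049) is on chromosome 7 from 27525442 to 27662995, NIPA1 (ENSG00000170113) on chromosome 15 from 22773063 to 22829791 and BTNL9 (ENSG00000165810) on chromosome 5 from 181040225 to 181061523. CLCN5, a chloride/proton exchanger of endosomes, was at 0.856 FPKM in DMSO, 1.01 in JQ1, 5.05 in DMSO+PHA and 3.96 in JQ1+PHA. Both PHA libraries stood above both libraries without PHA. PHA gave a log2 ratio of 2.56 (2.34 to 2.78) without JQ1 and 1.98 (1.77 to 2.19) with it, while JQ1 alone gave 0.23 with an interval from -0.04 to 0.51 that included no change. SCAMP1, a membrane protein of recycling carriers, was at 1.98, 2.03, 6.39 and 5.61 FPKM in DMSO, JQ1, DMSO+PHA and JQ1+PHA. JQ1 alone left SCAMP1 within counting error of DMSO, at a log2 ratio of 0.04 (-0.16 to 0.24).

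HIBADH, a mitochondrial enzyme of valine breakdown, was highest with both agents, at 2.93 FPKM in DMSO, 3.96 in JQ1, 8.03 in DMSO+PHA and 9.23 in JQ1+PHA. Its PHA log2 ratio was 1.45 (1.23 to 1.68) without JQ1 and 1.22 (1.02 to 1.42) with it. NIPA1, a magnesium transporter of endosomes, was lower with JQ1 alone and higher with PHA. It was at 0.779 FPKM in DMSO, 0.448 in JQ1, 1.89 in DMSO+PHA and 3.77 in JQ1+PHA. The JQ1 to DMSO log2 ratio was -0.80 (-1.09 to -0.52), and the PHA ratio was 1.28 (1.08 to 1.49) without JQ1 and 3.08 (2.84 to 3.32) with it, so the JQ1+PHA library was the highest of the 4. BTNL9, a butyrophilin-like surface protein of the immunoglobulin superfamily, had the largest PHA ratio of these genes at 5.86-fold. Its FPKM was 0.248 in DMSO, 0.210 in JQ1, 1.94 in DMSO+PHA and 1.47 in JQ1+PHA, and PHA gave a log2 ratio of 2.81 (2.31 to 3.34) in JQ1-treated cells.

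**Figure D3:**
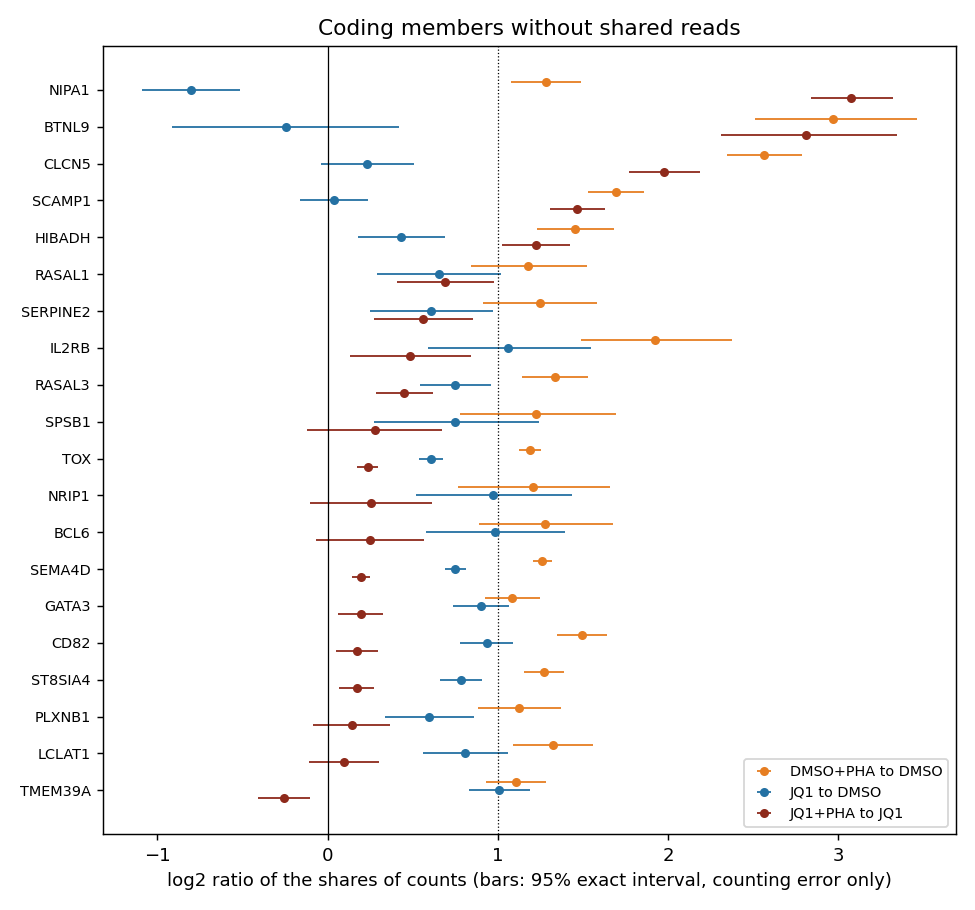
For 20 of the 21 coding members with little shared sequence, points give the log2 ratio of count shares and bars the 95% exact interval, for PHA without JQ1 (orange), JQ1 alone (blue) and PHA with JQ1 (dark red). From NIPA1 down to HIBADH the dark red points lie beyond the dotted 2-fold line, and below them they lie between 0 and that line, except TMEM39A to the left of 0.

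All 6 transcriptional regulators were at least 1.5-fold higher with JQ1 alone. In 4 of them (GATA3, TOX, BCL6 and NRIP1) PHA added less than 2-fold on top. The other 2, ATF5 (1.54-fold with JQ1 alone) and THAP9 (1.67-fold), were at least 2-fold higher with PHA in both arms. GATA3, the zinc finger factor that directs T-cell development and Th2 identity, was at 4.40 FPKM in DMSO, 8.21 in JQ1, 9.33 in DMSO+PHA and 9.40 in JQ1+PHA. The DMSO library stood alone at the low end. The locus is on chromosome 10 from 8053604 to 8075198. JQ1 alone gave a log2 ratio of 0.90 (0.74 to 1.06), and PHA in JQ1-treated cells gave 0.19 (0.06 to 0.33). TOX, an HMG-box factor of thymic development and T-cell exhaustion, was the most abundant member, at 34.3, 52.3, 78.1 and 61.5 FPKM in DMSO, JQ1, DMSO+PHA and JQ1+PHA. PHA gave a log2 ratio of 1.19 (1.12 to 1.25), JQ1 alone 0.61 (0.54 to 0.68), and PHA with JQ1 0.24 (0.18 to 0.30).

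BCL6 is a transcriptional repressor that acts in follicular helper T cells and germinal centre B cells. It was at 0.396 FPKM in DMSO, 0.781 in JQ1, 0.958 in DMSO+PHA and 0.930 in JQ1+PHA. NRIP1, a corepressor of nuclear receptors, was at 0.372, 0.728, 0.856 and 0.868 FPKM in the same order. For both genes the interval of PHA in JQ1-treated cells included no change, at -0.07 to 0.57 for BCL6 and -0.10 to 0.61 for NRIP1. ATF5, a bZIP factor of the stress response, was at 1.40 FPKM in DMSO, 2.21 in JQ1, 3.71 in DMSO+PHA and 5.28 in JQ1+PHA. Its locus overlaps NUP62 on the opposite strand, which had 4004, 2241, 3484 and 2320 counts in DMSO, JQ1, DMSO+PHA and JQ1+PHA, and the sum of the counts of ATF5 and its overlapping genes was 0.890-fold with PHA. THAP9, a DNA-binding protein related to a transposase, had 70, 133, 295 and 309 counts and lies against 3 genes of the opposite strand with far more counts.

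Surface receptors, ligands and their glycosylation made up 7 members, of which 4 were at least 1.5-fold higher with JQ1 alone (SEMA4D, IL2RB, CD82 and ST8SIA4), 2 (BTNL9 and AMIGO3) were 2-fold higher with PHA in both arms and PLXNB1 met neither condition. SEMA4D, a semaphorin ligand of T cells, was at 6.16 FPKM in DMSO, 10.4 in JQ1, 14.8 in DMSO+PHA and 11.9 in JQ1+PHA, on 3422 to 8587 counts. The PHA log2 ratio was 1.26 (1.20 to 1.32) without JQ1 and 0.20 (0.15 to 0.25) with it. PLXNB1, a receptor of SEMA4D, was at 0.634, 0.957, 1.38 and 1.06 FPKM, and PHA in JQ1-treated cells left it within counting error (0.14, -0.08 to 0.37).

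IL2RB, the beta chain of the IL-2 and IL-15 receptors, was at 0.507 FPKM in DMSO, 1.06 in JQ1, 1.92 in DMSO+PHA and 1.48 in JQ1+PHA. Its JQ1 to DMSO log2 ratio was 1.06 (0.59 to 1.55) by count shares and 0.93 on FPKM with 0.1 added, which kept it under the 2-fold limit. By count shares, 4 members were at least 2-fold higher with JQ1 alone (IL2RB, TMEM39A, RP11-117D22.2 and RP1-228P16.1). CD82, a tetraspanin that organizes surface receptors and adhesion molecules, was at 3.84, 7.35, 10.8 and 8.29 FPKM in DMSO, JQ1, DMSO+PHA and JQ1+PHA. ST8SIA4, which builds polysialic acid on glycoproteins, was at 4.78, 8.23, 11.6 and 9.28 FPKM in the same order. Both had a JQ1+PHA level a little above JQ1 alone, with log2 ratios of 0.17 (0.05 to 0.30) for CD82 and 0.17 (0.07 to 0.28) for ST8SIA4. AMIGO3, a cell adhesion protein with leucine-rich repeats, had the lowest JQ1 to DMSO ratio of the members on FPKM with 0.1 added. It had 28, 3, 154 and 124 counts. Of its 50-base stretches 99.5% also occur in other genes such as GMPPB and RNF123, so its counts cannot be assigned to AMIGO3 alone.

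Regulators of signalling included 2 Ras GTPase-activating proteins. RASAL3, expressed in T cells, was at 2.02 FPKM in DMSO, 3.39 in JQ1, 5.08 in DMSO+PHA and 4.64 in JQ1+PHA, and RASAL1 at 0.561, 0.882, 1.27 and 1.42. Both were higher with PHA than without in JQ1-treated cells, with log2 ratios of 0.45 (0.28 to 0.62) for RASAL3 and 0.69 (0.41 to 0.98) for RASAL1. SPSB1, a SOCS-box adaptor of ubiquitin ligases, was at 0.556, 0.935, 1.30 and 1.13 FPKM. RNF125, a ubiquitin ligase of antiviral and T-cell signalling, was at 1.82, 3.08, 3.95 and 3.62 FPKM, with 11.04% of its stretches shared with other genes. SERPINE2, a serine protease inhibitor, was at 0.471, 0.717, 1.12 and 1.06 FPKM.

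TICAM2, an adaptor of Toll-like receptor signalling, had 14, 16, 66 and 64 counts in DMSO, JQ1, DMSO+PHA and JQ1+PHA, and shares 87.9% of its stretches with other genes, most of them with the read-through gene TMED7-TICAM2. NUDT4, a hydrolase of inositol pyrophosphates, showed the highest ratio of JQ1+PHA to DMSO+PHA, at 5.73-fold on FPKM, with 40, 12, 131 and 888 counts. At 0.106, 0.0303, 0.331 and 2.37 FPKM in the same order, NUDT4 passed the mean FPKM filter only through the JQ1+PHA library. Its high ratios to that library follow in part from this. Its log2 ratio for PHA in JQ1-treated cells was 6.29 (5.48 to 7.25). NUDT4 shares 54.3% of its stretches with other genes and overlaps UBE2N, which had 2517 to 2851 counts.

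TMEM39A, a membrane protein of endoplasmic reticulum trafficking and autophagy, sat just under the limit on JQ1 alone, at 1.97-fold. It was at 2.35 FPKM in DMSO, 4.74 in JQ1, 5.06 in DMSO+PHA and 3.96 in JQ1+PHA. PHA gave a log2 ratio of 1.11 (0.93 to 1.28) without JQ1 and -0.26 (-0.41 to -0.11) with it. LCLAT1, an acyltransferase that remodels cardiolipin and phosphatidylinositol, was at 0.726, 1.27, 1.82 and 1.36 FPKM, and PHA in JQ1-treated cells stayed within counting error at 0.10 (-0.11 to 0.31). NBPF15, a neuroblastoma breakpoint family gene, was at 0.932, 1.21, 2.03 and 1.55 FPKM and shares 73.5% of its stretches with its relatives.

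The 3 highest PHA ratios belonged to transcripts with shared sequence or overlapping genes. CTD-3074O7.11 overlaps BBS1, DPP3 and ZDHHC24 and had 0 counts in DMSO and in JQ1, 195 in DMSO+PHA and 333 in JQ1+PHA. Against the floor of 3 counts it was at least 62.1-fold higher with PHA without JQ1 and at least 117-fold higher with JQ1, and 98.6% of its stretches occur in other genes. ST13P19, a processed pseudogene of ST13, had 1, 0, 52 and 51 counts, while ST13 itself had 6232, 7001, 6031 and 5275, and 32.0% of the stretches of ST13P19 occur in other genes. The entry named RABL6 here is a separate identifier without a transcript in GENCODE 44, with 24, 22, 99 and 107 counts, beside 2440, 2640, 2039 and 2467 for the main RABL6 gene. RP11-598P20.5 had 0, 0, 13 and 19 counts, was at least 4.14-fold higher with PHA against the same floor, and overlaps FNTA and HOOK3.

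The members held 30 coding genes, 11 lncRNAs, 7 pseudogenes, 3 of other types and 1 not in GENCODE 44. The coding share was 57.7%, against 60.1% of all 371 PHA-induced genes and 78.1% of all genes past the filter. LRRC37A17P, a pseudogene, was the most abundant, at 4.60 FPKM in DMSO, 8.39 in JQ1, 10.7 in DMSO+PHA and 8.24 in JQ1+PHA, with 82.1% of its stretches shared with its relatives. CLUHP3 was at 1.02, 1.30, 3.58 and 3.58 FPKM and shares 64.0%. RP4-539M6.20 and RP4-539M6.21 lie 293 bp apart on chromosome 22 with 11 counts or fewer in any library, and each overlaps RNF215 and SEC14L2. RP11-161H23.10 had 3, 1, 14 and 11 counts inside SPATS2, AC115617.2 had 7, 11, 18 and 26, and RP11-345P4.10 had 2, 3, 5 and 7. Of the rest, RP11-775C24.5, CTC-523E23.1, RP11-117D22.2, RP4-533D7.5, CTC-463A16.1, RP1-228P16.1, RP11-50D9.4, RN7SL49P, KB-1440D3.13, CTD-2619J13.16 and CTB-113P19.5 were in the JQ1 group, and CTD-2651B20.1 and RP11-54C4.3 in neither. For each of these transcripts in the JQ1 group the interval of JQ1 against DMSO included no change.

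**Figure D4:**
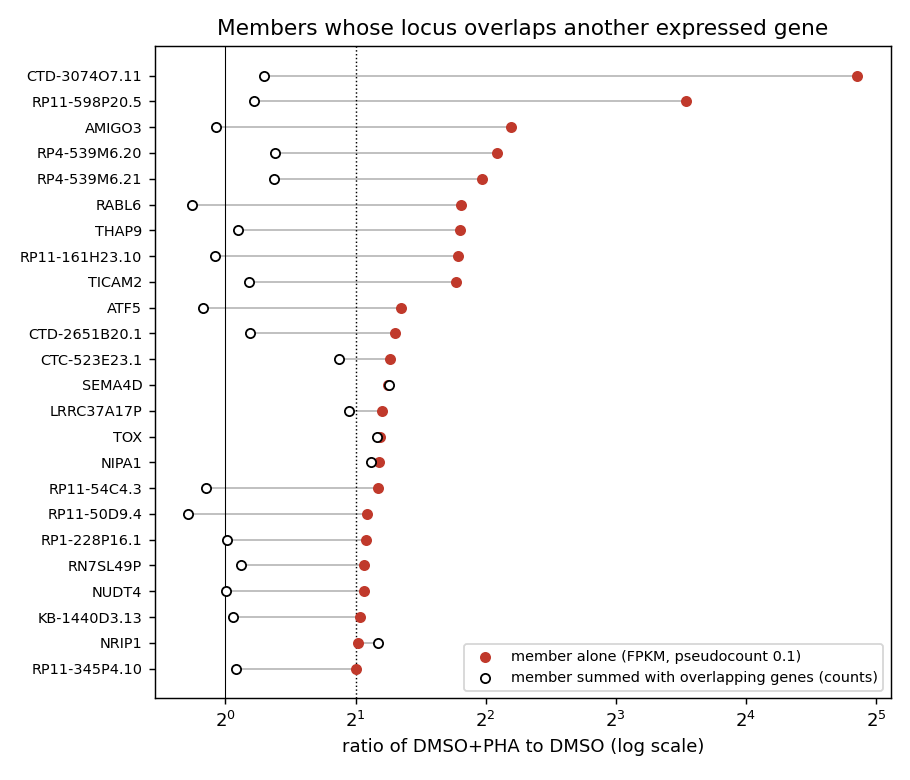
For the 24 members that overlap another gene with more than 3 counts, red points give the DMSO+PHA to DMSO ratio of the FPKM of the member alone (0.1 added) and open points the ratio of the counts summed over the member and its overlapping genes, on a log axis. SEMA4D, TOX, NIPA1 and NRIP1 stay to the right of the dotted 2-fold line, and the other 20 fall to its left, 18 of them with a partner that had at least as many counts.

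The thresholds cut through a continuous spread. RP11-345P4.10 entered at 2.01-fold with PHA and RP11-173P15.9 stayed out at 1.999. RP11-54C4.3 entered with 0.751 of the DMSO+PHA level kept and RP11-58A17.3 stayed out with 0.733. TMEM39A entered at 1.97-fold with JQ1 alone and TMEM189 stayed out at 2.03, and CTC-463A16.1 entered with a mean of 0.550 FPKM and CTD-2231E14.2 stayed out at 0.494.

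Beside the other PHA-induced genes the values are given as a description, since these groups were cut on the same ratios. In the ratio of JQ1+PHA to JQ1, 21 of 52 members were at least 2-fold higher, or 6 of 26 without shared or overlapped transcripts. The other counts were 3 of the 106 genes that kept the PHA level and were at least 2-fold higher with JQ1 alone, 5 of the 73 with 0.5 to 0.75 of the DMSO+PHA level, and 18 of the 140 with 0.5 or less. JQ1 alone was below DMSO in 9 of 52 members, 0 of 106, 11 of 73 and 89 of 140. The median JQ1 to DMSO ratio was 1.52 in the members, 3.56 in the 106, 1.35 in the 73, 0.767 in the 140 and 1.56 over all PHA-induced genes.

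Genes of T-cell activation and other pathways were looked up in lists. Across 14 gene lists with 452 distinct genes, 313 passed the filter, 34 were PHA-induced, and 4 were members (IL2RB, CD82, GATA3 and TOX). That is 1.28% of the listed genes past the filter, against 0.403% of all genes past it, and 11.8% of the induced listed genes, against 14.0% of all induced genes. A further 5 kept the PHA level but were at least 2-fold higher with JQ1 alone (IER3, KLF2, S1PR1, MX2 and GBP5). Another 4 lay between 0.5 and 0.75, and 21 were at 0.5 or less. Over all 371 PHA-induced genes the counts in the same order were 106, 73 and 140. Among all genes past the filter, 2.88% were PHA-induced. Of the immediate early list 6 of 27 were induced and none was a member, of the MAPK feedback list 1 of 13, of the T-cell receptor list 4 of 24 and of the inhibitory receptor list 5 of 18, again with no member. All 6 induced activation and costimulatory molecules of 23 (CD69, CD40LG, ICOS, CD28, CD27 and SEMA4A) were at 0.5 or less. CD69, the early activation antigen, was at 1.05 FPKM in DMSO, 0.766 in JQ1, 20.4 in DMSO+PHA and 3.14 in JQ1+PHA. Of the cytokine list 3 of 11 were induced with IL2RB as a member, of the adhesion list 4 of 38 with CD82, and of the immature lymphoid list 2 of 24, GATA3 and TOX. The median log2 ratio of DMSO+PHA to DMSO was 0.36 over the activation list, 0.53 over the cytokine list, 0.20 over the adhesion list and -0.21 over the immature lymphoid list, against -0.0027 over all genes past the filter. The medians of JQ1+PHA to DMSO+PHA were -1.79, -0.59, -0.39 and -0.62 in the same order, against -0.027. The interferon list had 2 of 31 induced and the glycolysis list 1 of 25, with no member, and the apoptosis, lipid, amino acid and cell cycle lists had 0 induced of 21, 23, 18 and 18.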

How the data were processed

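RNA-seq was done on Jurkat T cells with 1 library per condition. The authors aligned reads to GRCh38 with Hisat2 2.0.4, per the paper and the labels, and the submitters' processing notes also name TopHat2 2.0.9 and Cufflinks 2.1.1. The deposited values were counts of reads per gene, without normalization, and FPKM that the authors computed from them. The counter, the annotation release and the strand setting are not given in the sources used here, and the sources differ in the name of the library kit. Ratios were taken on FPKM with 0.1 added. Intervals are 95% exact (Clopper-Pearson), the floor was 3 counts, and no test between conditions was run because each had 1 library. The members and the gene lists were chosen with earlier results of these data known, so their counts support nothing beyond description. Named genes were members in a list, the 10 largest PHA ratios with an interval above no change, the 10 highest in DMSO+PHA, extremes of the other ratios, neighbours, and genes at each threshold. The other members, and the grouping by role, were added after their values were seen. Shared sequence was counted as 50-base stretches of GENCODE 44 transcripts that occur in another gene. The rule was run on simulated counts with counting error only, genes raised well past the PHA threshold and no JQ1 effect. That run did not cover genes near the thresholds, at low counts or raised by JQ1, or differences between cultures. Values of some genes are not reported here, since they are withheld for evaluation, and the plots that name genes leave them out. Scaling factors came from edgeR 4.0.16 and DESeq2 1.42.0 in R 4.3.3, all else from Python 3.11.15 (scipy 1.17.1, pandas 2.3.3, numpy 2.4.6, matplotlib 3.10.9).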

Additional observations from a re-analysis of the deposited data

Results flagged for a closer look

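TMEM39A stood out because its ratios with PHA lay on opposite sides of no change in the 2 arms. It was higher with PHA in DMSO-treated cells and lower in JQ1-treated cells, where the log2 ratio of JQ1+PHA to JQ1 was -0.26. It had 378 counts in DMSO, 796 in JQ1, 851 in DMSO+PHA and 630 in JQ1+PHA, and both exact intervals excluded no change. The difference between the arms was not tested, since there was 1 library per condition.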

How the results depend on the processing

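The number of members was 52, with 21 at least 2-fold higher with PHA in JQ1-treated cells, 1 at least 2-fold lower with JQ1 alone, and a median log2 ratio of JQ1 to DMSO of 0.60. These stayed close with TMM scaling (51 members), DESeq2 size factors (51), FPKM rescaled to a common total (57), a minimum of 20 counts (39) and the PHA interval above no change (42). The last setting reuses the ratio that the members were chosen on. A pseudocount of 1 gave 23, 10, 0 and 0.37, and one of 0.01 gave 5 lower with JQ1. A mean of at least 1 FPKM gave 32 and 12, no filter gave 165, 92, 5 and 0.090, coding genes only gave 30 and 13. A PHA threshold of 1.5 gave 260, 32 and 2, and one of 3 gave 17 with a median of 0.00. A retention threshold of 0.5 gave 109 and 2 lower, and one of 1 gave 22 and 0 lower. A JQ1 limit of 1.5-fold gave 25 with a median of 0.090. The share of members at least 2-fold higher with PHA in JQ1-treated cells, 40.4% under the rule, moved with these thresholds. It was 12.3% and 88.2% at PHA thresholds of 1.5 and 3, and 23.85% and 68.2% at retention thresholds of 0.5 and 1. At the JQ1 limit of 1.5-fold it was 76%. As settings chosen after seeing the data, at least 50 counts gave 34 and leaving out shared or overlapped members gave 26, 6 and 0. The cause of these shifts was not tested beyond the settings' own construction. Of the single-gene ratios, 984 stayed and 56 moved, 49 of them with a pseudocount of 1. Another scaling changed the sign of 7, in BCL6, RP11-117D22.2, RP4-539M6.20 and RP4-539M6.21, each within 0.0395 of 0 on the log2 scale. No paired analysis was possible because each condition had 1 library. Low counts limit most noncoding members.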
